A study of Mus musculus with 13 samples.

Results

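The binding of BLIMP1 in embryonic intestinal epithelium was set against its binding in plasmablasts, 2 cell types with 2 ChIP-seq libraries each, 4 of the 13 samples of a mouse series. Each library is a list of summits, where a summit is the base at the top of a called peak. Summits of the 4 libraries at most 200 bp apart were merged, and a cell type counted as bound where both of its libraries had a summit. Of the 71593 regions made this way (155003 when all 12 summit lists of the series were merged), 2504 were bound in both cell types. Another 1849 were bound in the intestine with no summit in either plasmablast library, and 17828 were bound in plasmablasts with no summit in either intestinal library. The remainder comprised 457 regions bound in the intestine with a summit in 1 plasmablast library, 2310 bound in plasmablasts with a summit in 1 intestinal library, and 46645 bound in neither. Genes were classed in the same way from summits within 1 kb of either end of the gene.

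All 4 libraries came from C57BL/6 mice carrying a homozygous EGFP knock-in at the N terminus of BLIMP1, and the tagged protein was precipitated with an antibody to GFP. Every group therefore carried the tag and no untagged group was analysed here. Intestinal cells were taken from E16.5 embryos (E, embryonic day), between the caudal part of the duodenum and the ileocecal junction, and were sorted as positive for GFP and EPCAM, with 1000000 cells in replicate 1 and 880000 in replicate 2. Plasmablasts were made from purified B cells cultured for 3 days with IL-4 at 2 ng/mL and LPS at 10 ng/mL, a value given as the labels state it and not checked, and were sorted as positive for GFP and CD138, with 1000000 and 1100000 cells. Whether the replicates are separate animals or cultures is not stated in the labels, so the spread between them may be technical. A binding site does not report expression, so marker genes could not be used to check the sorts.

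BLIMP1, the product of Prdm1, is a zinc-finger transcriptional repressor. In B cells it extinguishes the B cell programme as antibody-secreting cells form. In the fetal and suckling intestine it holds back the adult enterocyte programme until weaning. It recognises a sequence close to the elements bound by interferon regulatory factors, so the sites of these factors can overlap.

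The lists differed in length, and this bears on every count that follows. The intestinal libraries listed 7998 and 12115 summits on chromosomes 1 to 19, X and Y, and the plasmablast libraries 40750 and 45122, so the plasmablast lists held 4.27 times as many in all. Neither read depth nor the calling threshold is given in the labels, and wider binding, deeper sequencing and a laxer threshold cannot be told apart. The absence of a plasmablast summit was thus a stricter condition than the absence of an intestinal summit. The replicates also differed, since 60.4% of the regions of intestinal replicate 1 and 39.9% of those of replicate 2 held a summit of the other replicate, against 55.7% and 50.3% in plasmablasts.

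The promoter sequences below show where the summits fell in each class. They are 300-base windows of RefSeq, from 250 bases before to 50 after a gene start, in build GRCm38.p6, which has the coordinates of mm10. Each is written 5′ to 3′ on the strand of its gene, and capitals mark the letters GNGAAAG or their reverse complement, the core of a BLIMP1-type site. Zc3h11a and Fbxw5 (both cell types), B9d2 and Orc4 (intestine) and Abhd18 and Asb8 (plasmablast) were taken because their summits lay closest together. Stat6, Sis, Ephb4 and Irf4 were chosen for their function or rank after their values were seen.
Zc3h11a, chr1:133661350-133661649, minus strand, both cell types: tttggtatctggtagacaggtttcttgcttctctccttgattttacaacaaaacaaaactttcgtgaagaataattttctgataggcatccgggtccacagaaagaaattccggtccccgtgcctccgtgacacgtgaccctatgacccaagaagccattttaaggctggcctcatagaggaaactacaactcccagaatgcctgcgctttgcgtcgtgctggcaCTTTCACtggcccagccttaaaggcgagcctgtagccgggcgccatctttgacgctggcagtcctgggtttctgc
Fbxw5, chr2:25500500-25500799, plus strand, both cell types: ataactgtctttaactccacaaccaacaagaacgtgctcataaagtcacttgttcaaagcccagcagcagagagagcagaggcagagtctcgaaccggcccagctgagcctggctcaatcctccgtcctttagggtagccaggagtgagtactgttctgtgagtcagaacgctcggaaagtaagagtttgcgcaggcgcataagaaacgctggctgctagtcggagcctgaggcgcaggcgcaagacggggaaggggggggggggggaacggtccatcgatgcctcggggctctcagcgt
Stat6, chr10:127642736-127643035, plus strand, both cell types: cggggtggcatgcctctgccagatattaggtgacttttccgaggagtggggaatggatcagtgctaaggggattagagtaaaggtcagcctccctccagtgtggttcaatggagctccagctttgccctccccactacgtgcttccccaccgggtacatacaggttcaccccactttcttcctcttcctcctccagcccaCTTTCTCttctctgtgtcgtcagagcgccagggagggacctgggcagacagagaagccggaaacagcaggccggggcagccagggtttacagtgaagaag
B9d2, chr7:25680908-25681207, plus strand, intestine: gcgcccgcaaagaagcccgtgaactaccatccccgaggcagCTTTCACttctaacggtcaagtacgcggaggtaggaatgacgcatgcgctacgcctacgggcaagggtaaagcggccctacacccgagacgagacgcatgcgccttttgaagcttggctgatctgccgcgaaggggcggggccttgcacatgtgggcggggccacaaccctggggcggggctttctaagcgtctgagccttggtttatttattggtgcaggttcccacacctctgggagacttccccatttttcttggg
Orc4, chr2:48949218-48949517, minus strand, intestine: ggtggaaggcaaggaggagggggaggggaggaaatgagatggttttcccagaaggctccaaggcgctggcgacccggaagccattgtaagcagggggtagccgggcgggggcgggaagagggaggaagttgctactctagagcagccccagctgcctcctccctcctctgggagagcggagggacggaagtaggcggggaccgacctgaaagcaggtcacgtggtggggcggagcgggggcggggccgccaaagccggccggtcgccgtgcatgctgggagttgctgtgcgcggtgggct
Sis, chr3:72967814-72968113, minus strand, intestine: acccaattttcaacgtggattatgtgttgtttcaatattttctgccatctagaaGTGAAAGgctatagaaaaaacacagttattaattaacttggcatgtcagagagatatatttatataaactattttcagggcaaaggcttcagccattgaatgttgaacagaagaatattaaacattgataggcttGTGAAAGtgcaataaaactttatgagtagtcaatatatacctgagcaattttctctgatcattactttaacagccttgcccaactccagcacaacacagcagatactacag
Ephb4, chr5:137349859-137350158, plus strand, intestine: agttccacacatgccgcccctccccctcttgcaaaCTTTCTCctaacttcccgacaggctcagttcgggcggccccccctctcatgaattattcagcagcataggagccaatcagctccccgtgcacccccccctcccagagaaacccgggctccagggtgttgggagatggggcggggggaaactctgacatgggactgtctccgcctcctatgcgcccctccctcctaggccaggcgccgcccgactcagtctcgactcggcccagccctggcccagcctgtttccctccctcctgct
Abhd18, chr3:40894009-40894308, plus strand, plasmablast: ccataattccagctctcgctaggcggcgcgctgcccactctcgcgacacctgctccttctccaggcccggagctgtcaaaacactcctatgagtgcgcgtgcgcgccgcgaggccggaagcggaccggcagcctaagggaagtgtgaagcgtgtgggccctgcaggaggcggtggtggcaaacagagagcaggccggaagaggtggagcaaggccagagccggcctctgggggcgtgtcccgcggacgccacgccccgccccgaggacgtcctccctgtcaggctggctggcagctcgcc
Asb8, chr15:98145653-98145952, minus strand, plasmablast: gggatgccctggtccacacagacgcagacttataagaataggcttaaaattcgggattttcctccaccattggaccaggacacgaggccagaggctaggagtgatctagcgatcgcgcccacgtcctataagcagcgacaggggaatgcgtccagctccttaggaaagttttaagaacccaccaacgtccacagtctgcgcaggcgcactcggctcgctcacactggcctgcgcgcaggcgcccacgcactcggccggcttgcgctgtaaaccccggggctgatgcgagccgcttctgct
Irf4, chr13:30748983-30749282, plus strand, plasmablast: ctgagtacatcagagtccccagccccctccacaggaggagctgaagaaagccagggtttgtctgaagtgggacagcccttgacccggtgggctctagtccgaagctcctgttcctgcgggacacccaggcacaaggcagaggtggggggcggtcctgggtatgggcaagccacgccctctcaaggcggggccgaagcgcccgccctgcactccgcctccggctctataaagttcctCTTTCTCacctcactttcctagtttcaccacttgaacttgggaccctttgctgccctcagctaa
Positions in these windows are counted from the gene start as 0, with negative values before it. Each motif is placed by its first letter as written. In Zc3h11a the motif begins at -25 and the summits stood at -23 and -22 in the intestine and at -30 and -27 in plasmablasts. In Stat6 the motif begins at -50, with summits at -72 and -66 in the intestine and -82 and -72 in plasmablasts. Zc3h11a was taken for the closeness of its summits and Stat6 after its values were seen, so the closeness of the 4 libraries there reflects the choice. In B9d2 the motif begins at -209 and both intestinal summits stood at -193. In Ephb4 the motif begins at -215, with summits at -183 and -229. Sis has motifs beginning at -196 and -61, and its intestinal summits at -135 and -106 lay between them. Irf4 has a motif beginning at -14, with plasmablast summits at 33 and 2. The windows of Fbxw5, Orc4, Abhd18 and Asb8 hold no such letters, and neither does that of Mbd5, which the same rule took beside B9d2 and Orc4. Both intestinal summits of Orc4 stood at 3, the plasmablast summits of Abhd18 both at -194 and those of Asb8 both at 14. The Orc4 summits are the region chr2:48949264-48949264, which lay 235 bp from an end of Mbd5, so the windows of Orc4 and Mbd5 can share it.

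The regions bound in both cell types were 52.1% of the regions bound in the intestine and 11.1% of those bound in plasmablasts. Of the 4810 intestinal regions, 38.4% had no plasmablast summit, and of the 22642 plasmablast regions, 78.7% had no intestinal summit. Within the shared regions the summits of the cell types lay about as close to each other as those of the intestinal replicates. In the 2437 shared regions with 1 summit in each library, the median distance was 47 bp between the intestinal replicates and 34 bp between the plasmablast replicates. An intestinal and a plasmablast library differed by a median of 43 to 49 bp, depending on the pair of libraries. The replicates were 48 bp apart in intestinal regions with no plasmablast summit and 57 bp apart in plasmablast regions with no intestinal summit.

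**Figure D1:**
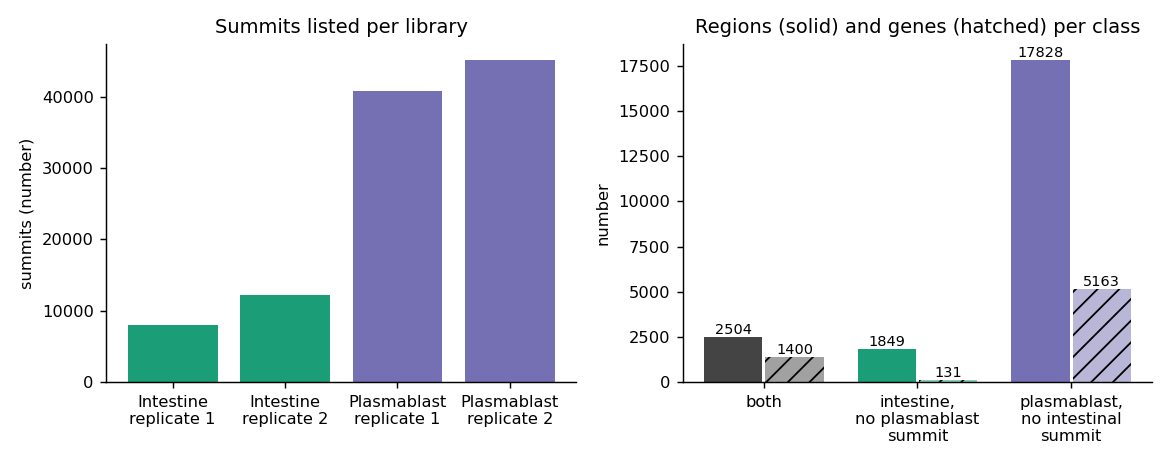
Left, summits used per library, as bars of their number. Right, the number of regions (solid) and of protein-coding genes (hatched) bound in both cell types, in the intestine with no plasmablast summit, and in plasmablasts with no intestinal summit. The plasmablast class is the largest on both scales, and 131 genes make up the intestinal class.

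Intestinal regions with no plasmablast summit lay farther from gene ends than the other classes. Only 12.3% of them (Clopper-Pearson 95% interval 10.9 to 13.9%) were within 1 kb of an end of a protein-coding gene, compared with 35.3% of the shared regions (33.4 to 37.2%) and 27.8% of the plasmablast regions with no intestinal summit (27.2 to 28.5%). These intervals cover counting error only. Their median distance to a gene end was 15188 bp, against 3899 bp for shared regions and 6243 bp for the plasmablast class. Within 250 bp of a gene start stood 4.54% of the intestinal class, 18.7% of the shared regions and 14.4% of the plasmablast class. Conversely, 41.2% of the intestinal class lay outside genes and over 1 kb from any end, compared with 28.3% and 27.9%. Inside genes but over 1 kb from an end lay 46.5% of the intestinal class, 36.4% of the shared regions and 44.3% of the plasmablast class. The part of the longer plasmablast lists in these shares was not tested.

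**Figure D2:**
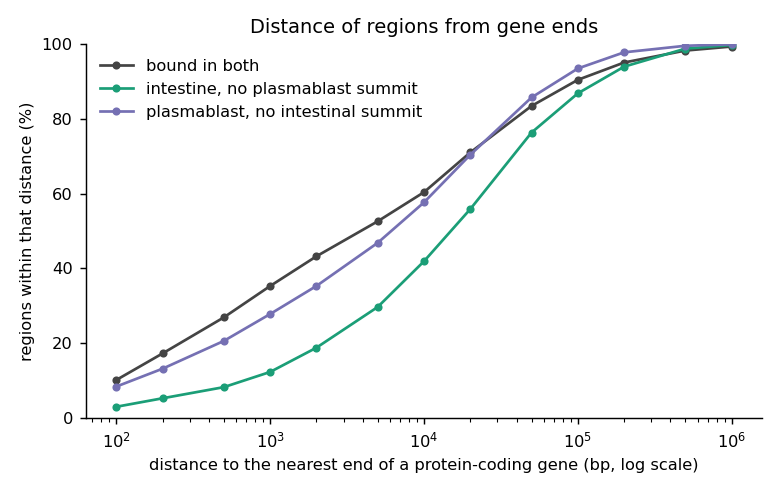
Cumulative share of regions (y axis, percent) within a given distance of the nearest end of a protein-coding gene (x axis, bp, log scale), for the 3 classes. The curve of intestinal regions with no plasmablast summit lies below the others, with 12.3% within 1 kb against 35.3% and 27.8%.

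Over all summits of a library, the cell types overlapped in the share near gene ends and were separate in distance. The share of all summits within 1 kb of a gene end was 25.2% and 29.8% in the intestinal libraries and 28.9% and 28.0% in the plasmablast libraries. The groups overlapped, with means of 27.5% ± 3.30 and 28.5% ± 0.635 (SD, n = 2 each). The difference of -0.989 percentage points was smaller than the spread of the intestinal replicates (exact permutation test, two-sided, p = 1.0), and without intestinal replicate 1 it had the opposite sign, at 1.35 points. The median distance to a gene end was 8285.5 and 5937 bp in the intestine and 5263.5 and 5302 bp in plasmablasts. These groups did not overlap and intestinal summits were the farther, with means of 7111 ± 1661 and 5283 ± 27.2 bp (SD, n = 2 each), a difference of 1828.5 bp that was close to the SD of the intestinal replicates. A two-sided exact permutation test gave p = 0.333, and 2 against 2 libraries cannot go lower. Summits over 50 kb from a gene end were 20.6% and 18.3% of the intestinal and 13.8% and 13.9% of the plasmablast lists, and those outside genes and over 1 kb from an end 33.9% and 31.0% against 27.3% and 27.8%. These shares did not overlap between the groups either, and were not tested.

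The shared regions were bound in other cell types of the series as well. Summits of the other 8 libraries, from PGC-like cells (PGCLC, germ cell precursors made in culture) at days 2 and 6, male and female primordial germ cells (PGC) at E12.5, and photoreceptor precursors, lay within 200 bp of 95.2% of the shared regions (94.3 to 96.0%). The corresponding shares were 50.1% (47.8 to 52.4%) of the intestinal class and 32.5% (31.8 to 33.2%) of the plasmablast class. Day 6 PGCLC replicate 1 has the longest list of these 8, and without it the shares were 91.1%, 39.0% and 21.5%. All 8 libraries had a summit at 979 shared regions, 36 regions of the intestinal class and 55 of the plasmablast class. Both day 2 PGCLC libraries marked 69.4% of the shared regions, 18.2% of the intestinal class and 5.09% of the plasmablast class. Both photoreceptor precursor libraries marked 56.1%, 6.27% and 3.10%. In the intestinal class 705 regions (38.1%) had a summit in the germ lineage and none in photoreceptor precursors, and 35 had the reverse. No summit of the 8 libraries was found at 923 regions of the intestinal class and 12035 of the plasmablast class. The shared regions were wider, with a median width of 97 bp against 49 and 57 bp, and the part of width and list length in these shares was not tested.

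**Figure D3:**
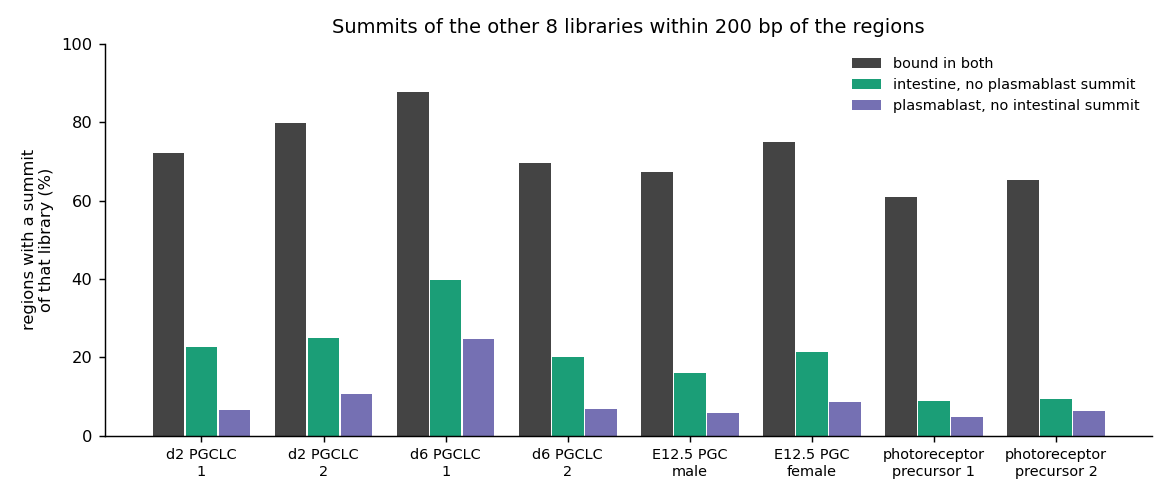
Share of regions (y axis, percent) with a summit of each of the other 8 libraries within 200 bp (x axis, library), for the 3 classes as bars. In each library the shared regions have the tallest bar and the plasmablast class the shortest.

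Regions of the smallest span, the distance over the summits that define the class, lay inside or between genes, mostly away from gene ends. An exception, in the intestinal class, was chr2:48949264-48949264, 235 bp from an end of Mbd5. The tightest shared region was chr9:3024425-3024426, outside genes and 310806 bp from Alkbh8, and 7 of the other 8 libraries marked it. On the same part of the chromosome, chr9:3002133-3002136 was likewise shared and marked by 7. Regions were not filtered for repeats or checked against the input, so binding and a signal common to any library cannot be told apart there. A further shared region, chr16:11144097-11144100, lay inside a gene, 7504 bp from an end of Zc3h7a, and was marked in all 8. In the intestinal class, chr3:3613440-3613440 lay inside Hnf4g, 46360 bp from its nearer end, with no summit in the other 8 libraries. Hnf4g encodes an HNF4 nuclear receptor of the intestinal epithelium. In the plasmablast class, chr1:60771887-60771887 lay inside Cd28, 1472 bp from its nearer end, again with no other library. Cd28 encodes a costimulatory receptor that long-lived plasma cells carry. In the Hnf4g and Cd28 regions both replicates gave the same base, as in 20 regions of the intestinal class and 182 of the plasmablast class.

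Of 21887 protein-coding genes, 1596 (7.29%) were bound in the intestine and 8691 (39.7%) in plasmablasts. Both cell types bound 1400 genes (6.4%), which were 87.7% of the genes bound in the intestine and 16.1% of those bound in plasmablasts. Only 131 genes (0.599%) were bound in the intestine with no plasmablast summit near an end, against 5163 genes (23.6%) in the reverse class. A gene could be bound in both cell types through separate sites, and 1029 of the 1400 had a shared region within 1 kb of an end. Bcl6, Hes1, Smad3, Tbk1 and Tcf7l2, named below, are examples bound in both with no shared region within 5 kb. Among genes over 5 kb long with a known strand, the summits that gave the call all stood at the gene start in 926 of 1005 shared genes, 79 of 88 intestinal genes and 3318 of 3607 plasmablast genes. The nearest plasmablast summit to the 131 genes stood at a median of 19589 bp from an end, with 25 genes having it between 1 and 2 kb away and 47 genes over 50 kb away.

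More transcription factors of the intestinal epithelium were bound in the intestine than in plasmablasts, despite the shorter lists. Of 30 such genes, 9 (30.0%) were bound in the intestine, where 7.29% of all genes were, and 7 (23.3%) in plasmablasts, where 39.7% of all genes were. By library, 33.3% and 30.0% of the list had a summit in the intestine and 26.7% and 23.3% in plasmablasts, while 9.62% and 16.8% of all genes had one in the intestinal libraries. The 5 factors bound in the intestine with no plasmablast summit were Elf3, Gata6, Grhl2, Hnf4g and Ovol1. Gata6, which encodes a GATA factor of the gut epithelium, had intestinal summits 79 and 92 bp from an end, and the nearest plasmablast summits were 148612 and 133881 bp away. For Hnf4g the intestinal summits lay 82 and 0 bp from an end and the plasmablast summits over 50 kb away, at 809140 and 809208 bp. Grhl2, an epithelial grainyhead-like factor, had them at 459 and 401 bp against 55543 and 55452 bp. Ovol1, an epithelial zinc-finger factor, had them at 298 and 257 bp against 6972 and 7259 bp. By the rule of the class, these 4 genes have no plasmablast summit within 1 kb, and the nearest ones were over 5 kb away. The distances of their intestinal replicates differed by under 100 bp. Elf3, an epithelial ETS factor, had intestinal summits at 697 and 454 bp and plasmablast summits at 25145 and 24670 bp.

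The other intestinal factors were split. Klf5, a factor of proliferating crypt cells, was bound in both cell types, with summits at 76 and 83 bp in the intestine and 63 and 54 bp in plasmablasts. Hes1 and Tcf7l2, effectors of Notch and WNT signalling, were also bound in both, but with no shared region within 5 kb of an end. Foxa3, Gfi1 and Klf4 were bound in plasmablasts alone. Klf4 had plasmablast summits at 112 and 64 bp and intestinal summits no nearer than 177245 bp. Cdx2, the homeobox factor that specifies the intestine, was not bound by the rule, since intestinal replicate 1 had a summit at 567 bp and replicate 2 at 1385 bp. Hnf4a had its intestinal summits at 6392 and 1922 bp. The remaining 16 factors, Cdx1, Gata4, Hnf4a and Sox9 among them, had no summit within 1 kb in any of the 4 libraries.

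Genes of enterocyte digestion and transport were bound in equal number in the intestine and in plasmablasts. Of 32, 4 were bound in the intestine with no plasmablast summit, 4 in plasmablasts with no intestinal summit, and 0 in both. The share bound was 1.71 times that of all genes in the intestine and 0.315 times in plasmablasts. Such ratios have unlike upper limits, here and in the lists below. A list bound in full would stand at 2.52 times in plasmablasts and far higher in the intestine. The sizes of the ratios are therefore not comparable between the cell types. The intestinal excess depended on the setting. Without intestinal replicate 1 the intestinal share was 18.75% against 16.8% of all genes, and with a summit in either library 18.75% against 19.2%. Of all genes 6.4% were bound in both cell types, so 0 of 32 is near that share, and with a 5 kb window 1 gene was in both. The intestinal genes encode brush-border proteins. Sis, the disaccharidase sucrase-isomaltase, had intestinal summits 135 and 106 bp from its end and plasmablast summits 284500 and 284450 bp away. Vil1, the microvillus protein villin, had them at 14 and 32 bp against 11803 and 12212 bp. Alpi, intestinal alkaline phosphatase, had them at 194 and 160 bp against 85650 and 84784 bp, and Mep1a, a meprin protease subunit, at 333 and 230 bp against 162608 and 147783 bp. By the rule of the class, these 4 genes have no plasmablast summit within 1 kb, and the nearest ones stood over 10 kb away.

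The 4 genes of that list bound in plasmablasts were Asl and Ass1, enzymes of arginine synthesis, Dpp4, a peptidase of the brush border and of lymphocytes, and Mttp, which loads lipid onto apolipoprotein B. Mttp had plasmablast summits at 32 and 24 bp and intestinal summits at 10105 and 9972 bp. Lct, encoding lactase of the suckling intestine, had plasmablast summits at 29289 and 512 bp and intestinal summits over 50 kb away. The apolipoprotein, fatty acid binding and neonatal Fc receptor genes of the list had no summit within 1 kb in any library. Of 19 genes of intestinal stem and secretory cells, 0 were bound in either cell type. Against 7.29% of all genes in the intestine 0 of 19 is little different, while in plasmablasts 39.7% of all genes were bound, and Ascl2 and Lgr5 alone had a summit near an end in some library.

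Of 34 genes of epithelial adhesion and polarity, 5 (14.7%) were bound in the intestine, where 7.29% of all genes were, and 12 (35.3%) in plasmablasts, where 39.7% were. The intestinal share was 2.02 times that of all genes and the plasmablast share 0.889 times. The list had 0 genes bound in the intestine with no plasmablast summit, which is near the 0.599% of all genes in that class. Without intestinal replicate 1 its intestinal count was 10 (29.4%, against 16.8% of all genes). Cldn7, a claudin, was shared, with summits at 131 and 77 bp in the intestine and 17 and 182 bp in plasmablasts. Esrp1, an epithelial splicing regulator, Marveld2 and Pard6b were shared as well. Epcam, the surface protein by which the intestinal cells were sorted, was bound in plasmablasts at 478 and 447 bp, while its intestinal summits lay 14477 and 13901 bp away. Cdh17, an intestinal cadherin, was bound at 640 and 641 bp in plasmablasts and had intestinal summits at 4713 and 5270 bp. Cgn, encoding cingulin, was bound in the intestine at 85 and 102 bp and had plasmablast summits at 112 and 1245 bp, on either side of the threshold.

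Nuclear receptor genes fell into all 3 classes. Of 26 nuclear receptor genes, 8 (30.8%) were bound in the intestine and 13 (50.0%) in plasmablasts, 4.22 and 1.26 times the shares of all genes. Nr5a2, encoding LRH-1, had intestinal summits at 47 and 135 bp and plasmablast summits at 16469 and 17014 bp, and Rxrg was the other gene of the intestinal class. The shared receptors were Esrra, Nr1d1, Nr1d2, Nr1h2, Nr1h4 and Nr2f6, among them both REV-ERB genes of the circadian clock and the bile acid receptor. Vdr, Nr3c1 and Ppard, the receptors for vitamin D, glucocorticoids and fatty acids, were in the plasmablast class. Of 26 genes of cholesterol and fatty acid synthesis, 5 (19.2%) were bound in the intestine and 20 (76.9%) in plasmablasts. These were 2.64 and 1.94 times the shares of all genes. The 5 were all shared, as were 87.7% of all genes bound in the intestine. Without intestinal replicate 1 the intestinal count was 9 (34.6%, against 16.8% of all genes). Acaca, the acetyl-CoA carboxylase gene, had summits at 141 and 117 bp in the intestine and 132 and 119 bp in plasmablasts.

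Genes of B cell identity were bound more often than all genes in plasmablasts but not in the intestine. Of 31, 21 (67.7%) were bound in plasmablasts and 1 (3.23%) in the intestine, the share of all genes being 39.7% and 7.29%. In the intestine 1 of 31 is little different from the share of all genes. The intestinal member was Bcl6, the repressor of the germinal centre, with summits at 221 and 573 bp in the intestine and 557 and 269 bp in plasmablasts. The 18 genes of the plasmablast class included the B cell receptor components Cd79a and Cd79b, the surface proteins Ms4a1, Cd37, Cd40 and Cr2, the kinases Btk, Lyn and Syk, and the factors Bach2, Ikzf1, Ikzf3, Irf8, Pou2af1 and Spib. Cd79a had plasmablast summits at 191 and 126 bp and intestinal summits at 13092 and 12927 bp. Cxcr5, the chemokine receptor of follicular B cells, had them at 49 and 151 bp against 21413 and 21187 bp. Pax5, the factor that maintains B cell identity, missed the rule, with plasmablast summits at 210 and 1314 bp. A plasmablast region with no intestinal summit lay inside or within 5 kb of 30 of the 31 genes, and of 39.6% of all genes. Without intestinal replicate 1 the intestinal count was 3, where 16.8% of all genes were bound.

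Of 16 genes of the plasma cell programme, 12 (75.0%) were bound in plasmablasts and 2 in the intestine. These shares were 1.89 and 1.71 times those of all genes, and without intestinal replicate 1 the intestinal count was 4. Of the 12, 8 had no intestinal summit, as had 59.4% of all genes bound in plasmablasts. Irf4, the factor that drives plasma cell formation, had plasmablast summits at 33 and 2 bp, intestinal summits at 28753 and 28716 bp, and 7 plasmablast regions within 5 kb. Mzb1, a chaperone of antibody assembly, Jchain, the joining chain of polymeric antibodies, and Sdc1, which encodes the CD138 used for sorting, were in the same class. Xbp1, the factor of the secretory programme, had plasmablast summits at 104 and 222 bp and intestinal summits at 4655 and 298 bp, so only intestinal replicate 2 was near. Prdm1 itself was bound in both cell types, at 754 and 489 bp in the intestine and 709 and 136 bp in plasmablasts. Zbtb20 was the other shared gene, with all summits between 289 and 316 bp.

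Secretion genes stood above all genes in both cell types. Of 42 genes of the endoplasmic reticulum and the unfolded protein response, 34 (81.0%) were bound in plasmablasts and 6 (14.3%) in the intestine, 2.04 and 1.96 times the shares of all genes. Without intestinal replicate 1 the intestinal count was 16 (38.1%, against 16.8% of all genes). The 6 were Atf4, Canx, Derl1, Derl2, P4hb and Sec61b, all shared, as were 87.7% of all genes bound in the intestine. Derl1, a part of the machinery that removes misfolded proteins, had summits at 33 and 48 bp in the intestine and 77 and 24 bp in plasmablasts. Among the 20 of the plasmablast class were Ern1 and Sel1l, a stress sensor and a degradation adaptor, and the translocon subunits Ssr1, Ssr2 and Ssr3. Hspa5, the main chaperone, and 7 more had a summit in 1 intestinal library. For Hspa5 these were 16852 bp away in replicate 1 and 278 bp away in replicate 2, the library with the longer list.

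Antigen presentation by MHC class I had the highest share bound of the 34 lists in each cell type. Of 20 genes for MHC class I molecules and peptide processing, 20 (100%) were bound in plasmablasts and 12 (60.0%) in the intestine. These were 2.52 and 8.23 times the shares of all genes, and 2.52 is the highest ratio possible in plasmablasts. The 12 were all shared, as were 87.7% of all genes bound in the intestine. The 12 included the peptide transporter genes Tap1 and Tap2, the immunoproteasome subunits Psmb9 and Psmb10, the peptidase Erap1 and the activator Nlrc5. Tap2 had summits at 16 and 35 bp in the intestine and 5 and 8 bp in plasmablasts, and Nlrc5 at 54 and 38 bp against 27 and 93 bp. B2m, the light chain common to all class I molecules, was in the plasmablast class, with summits at 19 and 85 bp against 65772 and 65750 bp in the intestine. Several H2 genes are near-identical copies, so reads may be placed on the wrong copy. Of 10 class II genes, 6 (60.0%, against 39.7% of all genes) were bound in plasmablasts. Only H2-DMa was bound in both, and 1 of 10 is near the 6.4% of all genes. Ciita, the class II transactivator, had no summit within 1 kb in any library, and its plasmablast summits stood at 3963 and 3958 bp.

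Interferon genes were above all genes in both cell types. Of 50, 35 (70.0%) were bound in plasmablasts and 11 in the intestine, 1.76 and 3.02 times the shares of all genes. All 11 were shared, as were 87.7% of all genes bound in the intestine. Usp18, a brake on interferon signalling, had summits at 2 and 49 bp in the intestine and 60 and 23 bp in plasmablasts, and Oas3, which senses double-stranded RNA, at 46 and 25 bp against 33 and 4 bp. In these genes the distances of the cell types overlapped. Irf1, in the plasmablast class, had plasmablast summits at 75 and 38 bp and intestinal summits at 6968 and 4482 bp. Of 25 genes of cytokine receptors, Janus kinases, STAT factors and SOCS inhibitors, 21 (84.0%) were bound in plasmablasts and 2 (8.0%) in the intestine, where 7.29% of all genes were. The 2 were Stat3 and Stat6. Without intestinal replicate 1 the intestinal count was 8 (32.0%, against 16.8% of all genes). Stat6, the factor activated by IL-4, had summits at 41 and 35 bp in the intestine and 51 and 41 bp in plasmablasts, cells that had been cultured with IL-4. Socs1, an inhibitor of the pathway, had plasmablast summits at 56 and 60 bp and intestinal summits at 12052 and 12471 bp. Of 30 genes of Toll-like receptor and NF-kB signalling, 21 (70.0%, against 39.7% of all genes) were bound in plasmablasts. Irak4 and Tbk1, 2 of the 30 (6.67%, against 6.4% of all genes), were bound in both. Without intestinal replicate 1 the intestinal count of that list was 6 (20.0%, against 16.8% of all genes). Tlr4, the receptor for LPS, had plasmablast summits at 130 and 106 bp and intestinal summits over 50 kb away.

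Growth and signalling lists were shared in part. Myc had summits at 210 and 271 bp in the intestine and 263 and 254 bp in plasmablasts, and Mycn at 70 and 209 bp against 164 and 163 bp. Of 40 cell cycle genes, 33 (82.5%) were bound in plasmablasts and 6 in the intestine, or 2.08 and 2.06 times the shares of all genes. Without intestinal replicate 1 the intestine had 15 (37.5%, against 16.8% of all genes). In the BCL2 family Bak1, a killer protein of the mitochondrial membrane, was in the intestinal class, at 79 and 123 bp, but its plasmablast summits stood at 1064 and 1036 bp, just outside 1 kb. Of 30 WNT genes, 3 (10.0%), Apc, Ctnnb1 and Tcf7l2, were shared. Of 30 TGF-beta and BMP genes, 3 (10.0%), Id2, Smad3 and Smad4, were shared. Both shares are near the 6.4% of all genes bound in both cell types. Ctnnb1, which encodes beta-catenin, had summits at 11 and 37 bp in the intestine and 72 and 14 bp in plasmablasts. Of 26 Notch genes, 16 (61.5%, against 39.7% of all genes) were bound in plasmablasts. Adam10 and Hes1, 2 of the 26 (7.69%, against 6.4% of all genes), were bound in both. Without intestinal replicate 1 the intestinal count was 7 (26.9%, against 16.8% of all genes).

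Genes of general cell function were bound widely in plasmablasts. Of 84 cytosolic ribosomal protein genes, 72 (85.7%) were bound in plasmablasts and 11 (13.1%) in the intestine, and of 78 mitochondrial ribosomal protein genes, 62 (79.5%) and 6 (7.69%). The constitutive proteasome had 28 of 31 (90.3%) and 6 of 31 (19.4%) genes bound, and histone genes had 44 of 58 (75.9%) and 4 of 58 (6.90%). Of all genes, 39.7% were bound in plasmablasts and 7.29% in the intestine. In the intestine the cytosolic ribosomal protein genes stood at 1.80 times the share of all genes, the mitochondrial ones at 1.05 times and the histone genes at 0.946 times. Without intestinal replicate 1 the intestinal counts were 25, 22, 15 and 7 in the order of the lists given. These were 29.8%, 28.2%, 48.4% and 12.1% of the lists, against 16.8% of all genes. Some ribosomal protein and histone genes have near-identical copies, and their summits are uncertain. Of 1465 olfactory and vomeronasal receptor genes, 6 (0.410%, against 39.7% of all genes) were bound in plasmablasts and 2 (0.137%, against 7.29%) in the intestine. Over the 34 lists, 25 had a larger share bound in the intestine than all genes, 24 in plasmablasts and 21 in both. Only the intestinal factors had a larger share bound in the intestine than in plasmablasts; the enterocyte list had equal shares and the stem and secretory list had none.

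**Figure D4:**
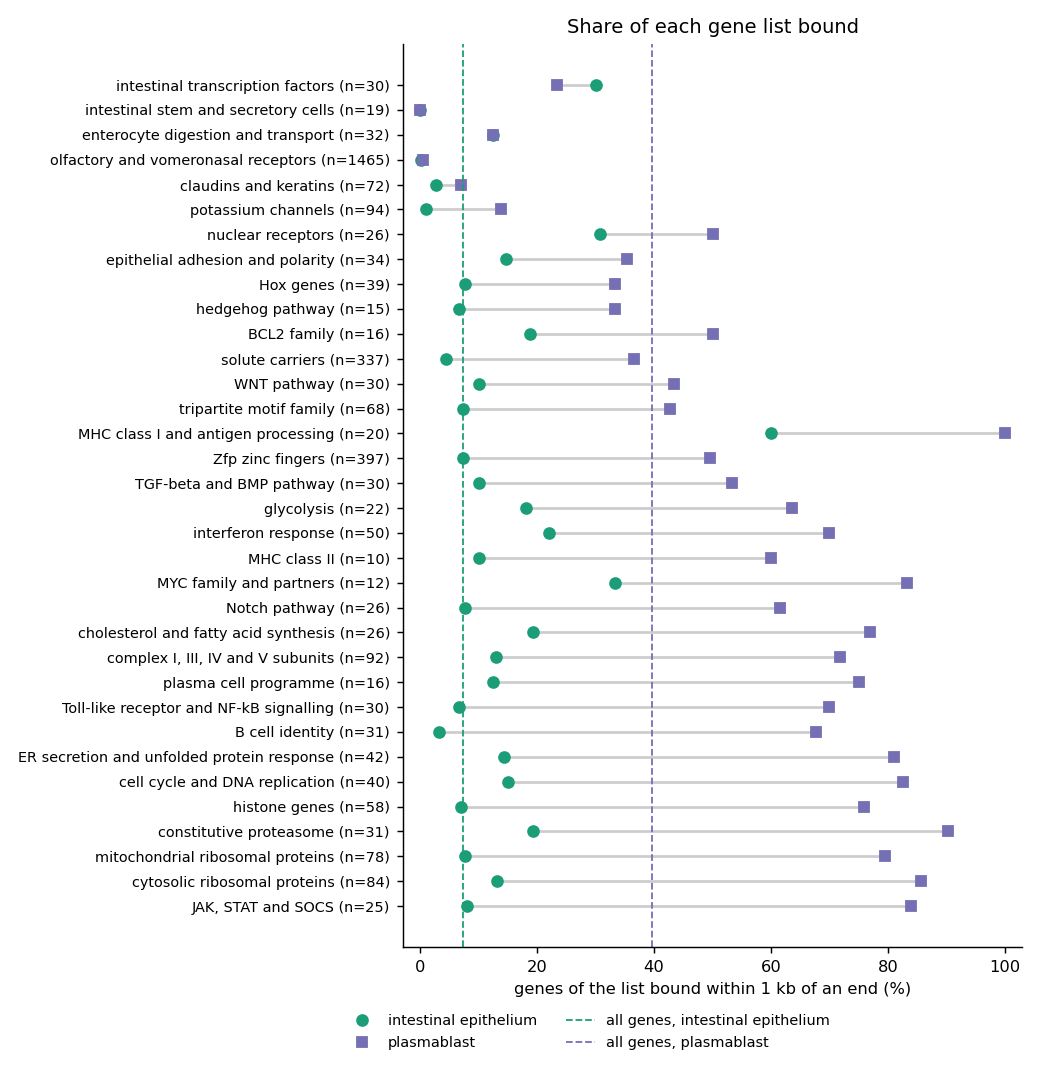
Share of each gene list bound within 1 kb of a gene end (x axis, percent) in the intestinal epithelium (circles) and in plasmablasts (squares), with the number of genes of the list beside its name and dashed lines for all protein-coding genes (7.29% and 39.7%). The intestinal transcription factors, at the top, are the list whose circle lies to the right of its square, and all 20 class I genes are bound in plasmablasts.

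The genes with the most regions of a class within 5 kb of an end were of unlike function. In the intestinal class these were Ephb4, Ms4a18, Aqp8, Ddc, Gata6, Trpm6, Fign, Vil1, Lrig1 and Nr5a2. Ephb4, an ephrin receptor, had 3 such regions, with summits at 183 and 229 bp in the intestine and 16043 and 16138 bp in plasmablasts. Aqp8 and Trpm6 encode a water channel and a magnesium channel of the gut, and Ddc an enzyme of serotonin and dopamine synthesis. Aqp8 had intestinal summits at 517 and 521 bp and plasmablast summits over 50 kb away, at 64664 and 64699 bp. In the plasmablast class the genes were Snn, Pim1, Il21r, Irf4, Fam111a, Crybb1, Txndc11, Arsg, Slc16a6 and Tradd. Snn, which encodes stannin, had 9 such regions and the kinase gene Pim1 had 8. Il21r, a cytokine receptor gene of B and T cells, had 7, with summits at 127 and 146 bp against 88731 and 89629 bp in the intestine. Snn and Txndc11 are neighbours, as are Arsg and Slc16a6, and each pair can share regions. The shared genes were Cib1, Gdpgp1, Cox17, Atp5d, Nfix, Kif17, Stat6, Ube2b, Spag9 and Pcbp2. Cib1 and Gdpgp1 lie next to each other and share their 3 regions. Kif17, a kinesin gene, had summits at 309 and 308 bp in the intestine and 324 and 320 bp in plasmablasts, a spread of 16 bp over the 4 libraries.

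Promoters bound in both cell types held the BLIMP1-type motif most often. Windows of 300 bases were available for 17492 of the 21887 genes, 21263 windows in all, and were classed by summits inside the window. The longer motif searched, on both strands, is the core GNGAAAG with an A before it and the letters NG after it. It was in 49 of 272 shared windows (95% interval of the share 13.6 to 23.1%). It was in 3 of 89 windows of the intestinal class (3.37%, 0.701 to 9.54%), 63 of 1812 of the plasmablast class (3.48%, 2.68 to 4.43%) and 2.44% of all windows. The core alone, which every match of the longer motif contains, was in 187 of the shared windows (68.75%, 62.9 to 74.2%). It was in 44 windows of the intestinal class (49.4%, 38.7 to 60.2%), 473 of the plasmablast class (26.1%, 24.1 to 28.2%), 20.2% of windows with no summit of the 4 libraries and 22.1% of all windows. The intestinal class thus stood near the plasmablast class for the longer motif and above it for the core, and with 89 windows the first share is known only within its wide interval. Neighbouring windows can overlap, and with overlapping windows counted once the longer motif was in 18.1%, 3.90% and 3.47% of the classes.

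Counted per library, 48.0% and 38.2% of the windows with an intestinal summit and 29.3% and 27.7% of those with a plasmablast summit held the core. The groups did not overlap, with means of 43.1% ± 6.90 and 28.5% ± 1.14 (SD, n = 2 each) and a difference of 14.6 percentage points (two-sided exact permutation p = 0.333, which 2 against 2 libraries cannot go below). The longer motif was in 9.08% and 6.13% of intestinal and in 4.47% and 3.90% of plasmablast windows (difference 3.42 points, exact permutation test, two-sided, p = 0.333). The share fell as the list lengthened over the 4 libraries, and the part of list length in the difference was not tested.

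**Figure D5:**
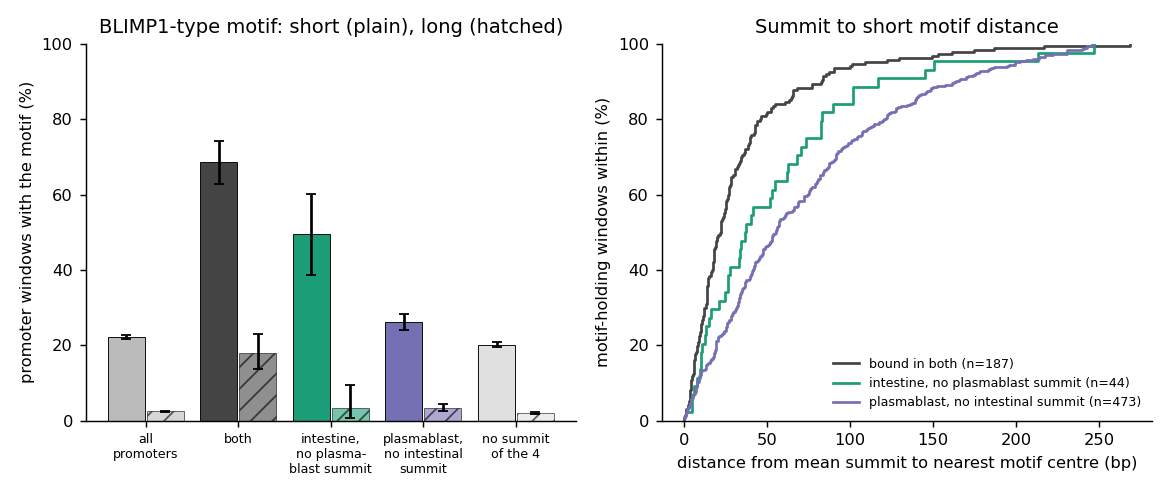
Left, share of promoter windows (y axis, percent) with the short motif (plain bars) and the long motif (hatched bars) in all windows, in the 3 classes and in windows with no summit of the 4 libraries, with Clopper-Pearson 95% intervals as error bars. Right, cumulative share of windows holding the short motif (y axis, percent) against the distance from the mean summit to the nearest motif centre (x axis, bp). The shared windows lead on both, at 68.75% with the short motif and a median distance of 22 bp. The mean summit is over all 4 libraries in shared windows and over those of the bound cell type in the other classes.

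The mean summit also lay closer to the core in shared windows. Among windows that held it, the median distance from the mean summit to the nearest motif centre was 22 bp in the shared class, 37.25 bp in the intestinal class and 55.5 bp in the plasmablast class. Within 30 bp stood 122 of 187 shared windows (65.2%, 57.9 to 72.0%), 18 of 44 intestinal windows (40.9%, 26.3 to 56.8%) and 136 of 473 plasmablast windows (28.8%, 24.7 to 33.1%). The mean summit of a shared window was taken over all 4 libraries, each with a summit inside the window. In the other classes it was taken over the libraries of the bound cell type only. The part of this difference in the distances was not tested. Other letters were counted in the same windows. The interferon element, GAAA and GAAA with any NN between them, was in 14.3% of shared windows, 5.62% of the intestinal class and 5.13% of the plasmablast class, against 3.35% of all windows, and a match can overlap one of the BLIMP1-type motif. The letters CCAAT were in 41.2%, 32.6% and 39.8%, against 38.2%, and the E-box CACGTG in 11.0%, 16.9% and 11.0%, against 7.84%. The letters TATAAA were in 6.62%, 14.6% and 5.46%, against 12.6%. The GC content was 60.8%, 61.0% and 61.4% in the 3 classes and 53.7% in windows with no summit of the 4 libraries. A match of letters is a description of the window and does not show that a factor binds there.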

How the data were processed

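The deposited files hold the chromosome and position of each summit per library, in a separate list for each library made by the authors, with no height, score or p-value. The submitters' processing notes name the build mm10 and, with no role or parameter, MACS2 2.1, Bowtie 1.1.2, cutadapt 1.7.1 and Trim Galore 0.3.7. The calling threshold and control, the depth of reads and the first base of the numbering (0 or 1) are not given in the sources used here. Positions may therefore be off by 1 bp. The input library was not analysed here.

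Summits on chromosomes 1 to 19, X and Y were merged by single linkage at 200 bp. Genes and promoters came from RefSeq tables of GRCm38.p6. A gene was bound where each of the libraries marked it within 1 kb of an end, and the summits need not share a region. The members and the 34 gene lists were chosen with earlier results of these data known. Lists are described by counts beside the share of all genes, with no list test. Named genes are, per class, the 10 with the most regions of the class within 5 kb (ties by the spread of summits, then symbol), up to 4 per list and class, and 15 fixed genes; further genes are named after their values were seen. Values of a few genes are left out here. Other spellings of the motif were looked at and are not reported. Library values were compared by exact permutation tests, two-sided. At most 244 positions were identical between libraries; the libraries are separate data. Replicate numbers were not used as pairs in the main tests. The replicate differences of the cell types had a correlation of 0.03 over 6665 regions with a summit in both. That value cannot tell whether libraries of the same number shared a batch. Class assignment was tested on simulated data. Python 3.11.15, pandas 2.3.3, numpy 2.4.6, scipy 1.17.1 and matplotlib 3.10.9 were used.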

Additional observations from a re-analysis of the deposited data

How the results depend on the processing

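Merging distances of 100 and 500 bp kept each region count within 1.5 times. With a summit in either library as the rule, 6665 regions were shared, 8549 intestinal and 56379 plasmablast, and 3814 genes were shared and 381 intestinal. Without each replicate in turn, shared regions ranged from 2643 to 4180, intestinal regions from 2061 to 6374, plasmablast regions from 18400 to 39578, shared genes from 1429 to 3140 and intestinal genes from 160 to 307; the rule then asks for a summit in fewer libraries. Shared genes numbered 888 at 500 bp and 2522 at 5 kb, and intestinal genes 227 at 5 kb and 216 among genes of all kinds. Plasmablast genes stayed within 1.5 times. The difference in the share of summits near gene ends ranged from -3.32 to 1.35 points without each replicate and was 0.198 points at 500 bp; the cause was not tested. With the replicate block, the difference of that share stayed at -0.989 points (exact permutation p = 1.0) and that of the median distance at 1828.5 bp (exact permutation p = 0.5, the smallest possible there). With the motif shortened to GNGAAAG the shares were 68.75%, 49.4% and 26.1%. Over 7 settings, 30.0 to 46.7% of the intestinal factors were bound in the intestine and 23.3 to 33.3% in plasmablasts. Of 714 list counts under other settings, 214 moved by over 1.5 times. Summit numbers carry no depth correction.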
